A study of Homo sapiens with 6 samples.

Results

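The genes described are 10 members of the AP-1 and immediate-early group: the Fos-family genes FOS, FOSB and FOSL1, the Jun-family genes JUN, JUNB and JUND, and the early genes EGR1, IER2, IER3 and NR4A1. They were taken by gene symbol from the 51103 genes of each table, and all 10 passed the filter on low counts. Polyadenylated RNA was sequenced from AGS, a line of gastric adenocarcinoma, and HGC-27, a line of poorly differentiated gastric carcinoma. Cells received a lentivirus described as giving NINJ1 overexpression or were described as a negative control, and were lysed after 48 hours. With 1 control and 2 NINJ1 libraries for each line there were 6 libraries, and no other allele or agent is given. NINJ1 encodes ninjurin-1, a surface protein of cell adhesion that also ruptures the membrane of dying cells. Whether the NINJ1 cells were a pool or a clone, and whether the control cells carried an empty virus, is not stated in the labels. The labels do not tell whether replicates came from different cultures, so the p-values speak of library-to-library spread alone, and each control is assumed to vary like the NINJ1 pairs.

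AP-1 is a dimer of leucine-zipper proteins. Jun proteins pair with each other or with Fos proteins, whereas Fos proteins need a Jun partner to bind DNA at TPA response elements and cAMP response elements. Immediate-early genes are transcribed within minutes of a growth factor, serum or stress signal without new protein synthesis, largely through MAP kinases that act on serum response factor, ETS-domain partners and AP-1 itself, and most of their mRNAs decay quickly. In epithelial cancers AP-1 is known for its part in proliferation, invasion and stress responses, and FOSL1 in particular is tied to sustained ERK signalling.

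Sequences before the start sites are shown for 4 members: EGR1, JUN and JUND, which held a searched motif, and FOS, which held none. The sequences come from RefSeq (GRCh38.p14), in which 8 of the 10 members were matched. FOSL1 and IER3 were not matched. Both strands of the 250 bases before each start were searched. Capitals mark CArG boxes, the site of serum response factor, in EGR1 (chr5:138465329-138465478, plus strand). They mark TGACNTCA, the 8-base site of AP-1 and ATF proteins, in JUN (chr1:58784096-58784125, minus strand) and JUND (chr19:18281723-18281872, minus strand). FOS (chr14:75278624-75278773, plus strand) is shown without a match in the searched window. Each stretch shown is a part of that window, and positions are counted from the RefSeq start. The stretches run from -150 to -1 in EGR1, -78 to -49 in JUN, -250 to -101 in JUND and -204 to -55 in FOS. The gene coordinates given further below come from GENCODE, whose starts can differ from those of RefSeq. By those coordinates the JUN stretch lies inside the JUN gene. The search took exact letters within 250 bases, so a site further up, or one that departs from these letters, was not sought. The absence of a match in FOS therefore does not tell that the gene lacks such sites.
EGR1: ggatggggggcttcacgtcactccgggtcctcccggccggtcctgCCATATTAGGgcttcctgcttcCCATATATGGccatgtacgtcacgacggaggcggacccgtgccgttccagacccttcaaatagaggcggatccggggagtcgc
JUN: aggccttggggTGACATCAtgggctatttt
JUND: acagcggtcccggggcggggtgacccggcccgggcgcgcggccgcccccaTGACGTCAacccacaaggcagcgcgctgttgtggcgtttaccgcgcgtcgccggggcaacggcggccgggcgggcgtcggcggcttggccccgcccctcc
FOS: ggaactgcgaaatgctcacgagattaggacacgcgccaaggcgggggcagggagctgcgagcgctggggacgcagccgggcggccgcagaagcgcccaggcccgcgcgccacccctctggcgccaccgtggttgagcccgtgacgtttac

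The EGR1 window held 2 CArG boxes, at -105 to -96 and -83 to -74 from its start, and a CArG box was found in 1.16% of 35116 promoters of the same length. In JUN, TGACATCA lay at -67 to -60, and in JUND, TGACGTCA lay at -200 to -193. TGACNTCA was found in 6.87% of all promoters. Its narrower form TGACGTCA, the cAMP response element, was found in 1.65%. IER2 held the ETS core CCGGAAG at -27 to -21, on the other strand, as did 8.52% of promoters. The TPA response element TGANTCA (6.57% of promoters) and the EGR sites GCGTGGGCG and GCGGGGGCG (5.37%) were not found in the windows of the 8 members. These matches describe letters in a window and not bound sites.

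For the replicate 2 libraries the line in the title and the line in the file name disagree, and the file names are followed here. AGS NINJ1 replicate 2 is thus titled HGC-27, and HGC-27 NINJ1 replicate 2 is titled AGS. In the 4 undisputed libraries 15 genes had 100 counts or more in each HGC-27 library but no count in AGS, and 13 genes had the opposite profile. AGS NINJ1 replicate 2 reached 10 counts for 0 of the 15 and for 13 of the 13, and HGC-27 NINJ1 replicate 2 for 15 and 0. By these genes both libraries match the line in the file name and not the line in the title. Total counts per library ran from 12619684 to 18175697. The HGC-27 control stood apart: 2.31% of its counts fell in genes of over 60% GC, against 9.25% to 11.3% in the other 5 libraries, and it held 19371 detected genes against 22839 to 23396. In AGS, NINJ1 had 10.9 FPKM (a count per length and library total) in the control, against 7.81 and 6.29 with the NINJ1 label, lower by log2 -0.68 (edgeR adjusted p = 0.0148), which goes against their label. In HGC-27 it was at 1.48 in the control and at 6.88 and 7.53, higher by log2 1.89 (edgeR adjusted p = 3.22e-08), or by 0.60 with a correction for GC content (edgeR adjusted p = 0.0277). The libraries are therefore called NINJ1-labelled below. Of 5 epithelial markers KRT8, KRT18 and EPCAM reached an FPKM of 1 in every library, whereas KRT19 and CDH1 did not in any. None of the 5 gastric gland markers did so in any library. Summed fibroblast markers ran from 0.983 to 10.9 FPKM and were highest in the AGS control. Blood markers summed to at most 1.3 and endothelial markers to at most 0.506 FPKM.

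**Figure D1:**
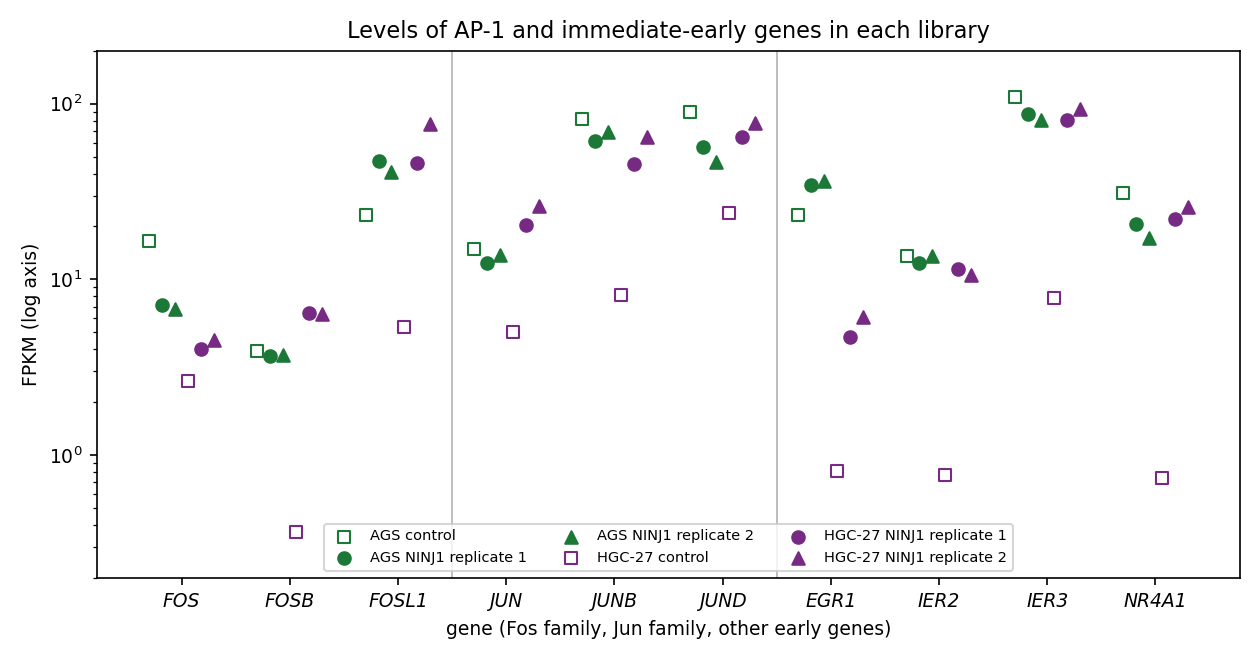
FPKM (log axis) of the 10 members in each of the 6 libraries; open squares are controls, circles and triangles the NINJ1-labelled replicates 1 and 2, green AGS and purple HGC-27. For every member the HGC-27 control was the lowest of the 6 libraries, and EGR1 spanned the widest range on this axis, from 0.807 to 36.1.

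IER3, JUND and JUNB had the 3 highest levels among the members in each AGS library and in the HGC-27 control, and in the NINJ1-labelled HGC-27 libraries FOSL1 stood above JUNB. In the AGS control IER3 came first at 108.4 FPKM, followed by JUND at 90.2 and JUNB at 81.5, and FOSB last at 3.92. In the HGC-27 control JUND came first at 23.9 FPKM, followed by JUNB at 8.19, and FOSB was again last at 0.367. In the NINJ1-labelled libraries of both lines IER3 came first, from 80.3 to 93.4 FPKM. FOS took the last place in both NINJ1-labelled HGC-27 libraries, at 3.99 and 4.52 FPKM, whereas in AGS these libraries kept FOSB last, at 3.67 and 3.69. The length behind FPKM was 7295 bases for NR4A1, 5553 for FOSB and 3238 for FOS. The longest transcripts of these genes have 4837, 3775 and 2158 bases. Rankings, shares and ratios between genes depend on that length, whereas a comparison of 1 gene between libraries does not.

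Within the 6 AP-1 subunits, the Jun family made up most of the summed FPKM in each library. The NINJ1-labelled libraries of both lines held a larger share of FOS, FOSB and FOSL1, called the Fos-family share here, than their control. FOSL2, the remaining Fos-family gene, is not among the 6, so these shares leave it out and could differ with it. In CPM (the count scaled to the library's effective total) FOSL2 was at 257 in the AGS control, against 140 and 148. In HGC-27 it was at 165 in the control, against 154 and 176. With a correction for GC content the FOSL2 log2 change was -0.72 in each line (edgeR adjusted p = 1.96e-05 in AGS and 2.43e-06 in HGC-27). In the AGS control FOS, FOSB and FOSL1 were at 53.0, 21.5 and 42.9 CPM, each below FOSL2. In AGS the 6 subunits summed to 230.4 FPKM in the control, against 188.8 and 180.9. The Fos family took 18.9% of that sum in the control, against 30.7% and 28.5%. In HGC-27 the sum was 45.4 FPKM in the control against 187.0 and 255.6, and the Fos-family share 18.4% against 30% and 34.3%. FOSL1 accounted for the larger share in both lines. It took 10% of the AP-1 sum in the control of AGS, then 25% and 22.7%, and in HGC-27 11.8%, then 24.5% and 30%. FOS moved the other way as a share, from 7.21% to 3.77% in both NINJ1-labelled AGS libraries, and from 5.8% to 2.13% and 1.77% in HGC-27. The ratio of FOSL1 to FOS was accordingly 1.39 in the AGS control against 6.63 and 6.02, and 2.04 in the HGC-27 control against 11.5 and 17. FOSL1 is richer in GC (60%) than FOS (52.6%), and the HGC-27 control is poor in such genes: without a GC correction the log2 changes of FOSL1 and FOS in HGC-27 were 3.12 and 0.30, and with it 1.36 and -0.33. With 1 control a line these shares and ratios have no test.

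**Figure D2:**
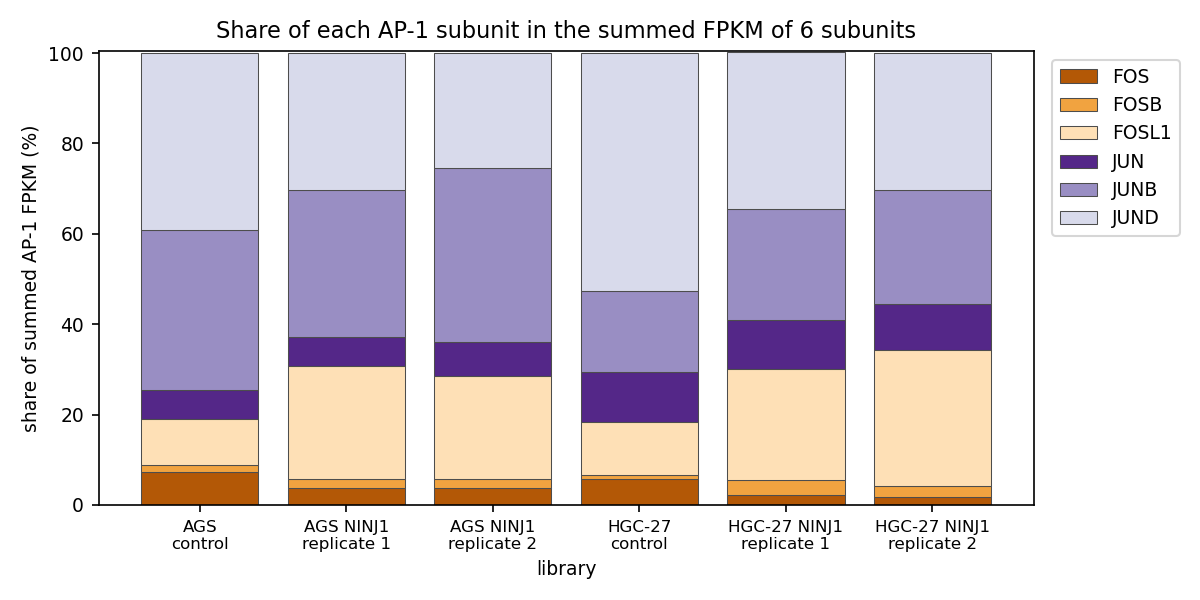
Share (%) of each of the 6 AP-1 subunits in their summed FPKM, 1 bar per library, Fos family in orange and Jun family in purple. FOSL1 takes 22.7% to 30% in the 4 NINJ1-labelled libraries, against 10% and 11.8% in the controls, and JUND takes most in the HGC-27 control, at 52.5%.

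Among Jun proteins, JUND led in both controls and its share was smaller in the NINJ1-labelled libraries. JUND took 39.2% of the AP-1 sum in the control of AGS, then 30.2% and 25.6%. The same share was 52.5% in the control of HGC-27, then 34.8% and 30.3%. JUNB took 35.4%, 32.5% and 38.4% in the AGS libraries, so that it stood above JUND in both NINJ1-labelled ones. In HGC-27 it took 18%, 24.4% and 25.3%, and stayed below JUND. JUN, the classical partner of FOS, made up 6.49% to 7.56% in AGS and 10.2% to 11% in HGC-27. JUNB (64.9% GC) and JUND (69.7%) are richer in GC than JUN (56.7%), and the HGC-27 control is poor in such genes. Without a GC correction the log2 changes of JUN, JUNB and JUND in HGC-27 were 1.81, 2.35 and 1.18. With it they were 0.60, -0.21 and -2.11.

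The first comparison asked how the members differed between NINJ1-labelled and control libraries of AGS. FOS, JUND, NR4A1 and IER3 were lower and FOSL1 and EGR1 higher, so that AP-1 subunits and the other early genes each moved in both directions. Of the 10 members 2 passed the threshold upward and 4 downward (edgeR quasi-likelihood test, Benjamini-Hochberg adjusted p under 0.05 over 17617 genes). Among all tested genes 5.73% passed upward and 9.30% downward. The median log2 change was -0.31 over the 6 AP-1 subunits, -0.28 over the 4 other early genes and 0.00 over all tested genes. With a correction for GC content these medians were -0.02, -0.03 and 0.08. GC content moved with the uncorrected AGS values too: the median was 0.12 among tested genes of at most 40% GC and -0.44 above 65%. Mitochondrial genes took 5% of counts in the AGS control against 3.19% and 2.78%, and the 4 fibroblast markers summed to 10.9 FPKM there against 3.8 and 3.27. COL1A1 (6.91, 3.02 and 2.56 FPKM) and PDGFRB (3.9, 0.777 and 0.707) made up nearly all of that sum, while COL1A2 and DCN were at or near 0 in all 3 libraries. The part of either in these values was not tested, and in bulk RNA a change in the cells' makeup and a change per cell cannot be told apart.

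FOS, the prototype Fos protein (GRCh38 chr14:75278774-75282230, plus strand), had 16.6 FPKM in the AGS control, and its NINJ1-labelled libraries had 7.12 and 6.82. It was thus 2.47-fold lower, and the log2 change of -1.31 (SE 0.17) was the largest in size among the members in this line (edgeR adjusted p = 1.27e-06). FOSB (chr19:45467995-45475179, plus strand), which is induced with FOS by many signals, was at 3.92, 3.67 and 3.69 FPKM. Its log2 change of -0.15 (95% interval -0.51 to 0.22) did not pass (edgeR adjusted p = 0.651). FOSL1, which encodes Fra-1 (chr11:65892049-65900573, minus strand), went from 23.1 FPKM in the control to 47.2 and 41. It rose by log2 0.88 (SE 0.20, edgeR adjusted p = 0.00165). The 3 Fos-family genes thus each took a different course in AGS.

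JUND, the Jun protein that is expressed broadly also in resting cells (chr19:18279760-18281622, minus strand), had 90.2 FPKM in the AGS control, against 57 and 46.3 with the NINJ1 label. It fell by 0.86 on the log2 scale (SE 0.14, edgeR adjusted p = 3.57e-05), and by a corrected value of 0.29 (edgeR adjusted p = 0.0436). JUN (chr1:58780788-58784327, minus strand) was at 14.9, 12.4 and 13.7 FPKM, a log2 change of -0.25 that did not pass (edgeR adjusted p = 0.317). JUNB (chr19:12791496-12793315, plus strand), a weaker activator that can oppose JUN, was at 81.5, 61.4 and 69.4 FPKM, a log2 change of -0.37 that did not pass either (edgeR adjusted p = 0.103). With the GC correction the JUNB value was 0.03, with an interval of -0.22 to 0.29.

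Of the other early genes, NR4A1, an orphan nuclear receptor also called NUR77 (chr12:52022832-52059507, plus strand), had 31 FPKM in the AGS control, against 20.6 and 17.1 with the NINJ1 label. Its log2 change was -0.77 (SE 0.13, edgeR adjusted p = 9.69e-05). EGR1, a zinc-finger transcription factor (chr5:138465490-138469315, plus strand), moved the other way, from 23.2 FPKM to 34.4 and 36.1. The log2 change was 0.55 (SE 0.16, edgeR adjusted p = 0.0148), and the ratio of EGR1 to NR4A1 was 1.67 and 2.11 in the NINJ1-labelled libraries against 0.75 in the control. IER3, a stress-induced regulator of cell survival also known as IEX-1 (chr6:30743199-30744554, minus strand), was at 108.4 FPKM and then at 87.2 and 80.3, a log2 change of -0.43 (edgeR adjusted p = 0.0295). IER2, a small nuclear protein (chr19:13150415-13154908, plus strand), was at 13.6, 12.4 and 13.6 FPKM and did not pass (log2 -0.13, edgeR adjusted p = 0.667).

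Corrected for GC content, 2 members were higher and 3 lower in AGS, where 12.2% of all tested genes were higher and 8.17% lower. IER3 was then no longer called (log2 -0.22, edgeR adjusted p = 0.140), and FOSL1 and EGR1 had log2 values of 1.12 and 0.70 (edgeR adjusted p = 8.39e-05 and 0.000405). The calls of EGR1 and IER3 were lost when either NINJ1-labelled AGS library was left out: the edgeR adjusted p was 0.199 and 0.330 without replicate 2, and 0.0798 and 0.146 without replicate 1. DESeq2 called FOS, JUND and NR4A1 alone, with DESeq2 adjusted p of 0.260 for FOSL1, 0.0794 for EGR1 and 0.0730 for IER3, and limma on log2(FPKM + 1) called FOS alone. The share of all tested genes called by DESeq2 and by limma was not obtained.

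In HGC-27 the question was the same, and 9 of the 10 members were higher in the NINJ1-labelled libraries. NR4A1, FOSB and IER2 showed the largest differences, JUND the smallest of those that passed, and FOS did not pass. Among all tested genes 34.0% passed upward and 29.1% downward in this comparison, and 0 of the members passed downward. The median log2 change was 2.08 over the AP-1 subunits, 3.26 over the other early genes and 0.12 over all tested genes. GC content moved with these values across all genes: the median log2 change was -0.76 among tested genes of at most 40% GC, 1.43 from 55% to 60%, 2.35 from 60% to 65% and 3.61 above 65%. The members' longest transcripts have a GC content of 52.6% (FOS) to 69.7% (JUND). Mitochondrial genes took 6.5% of counts in the HGC-27 control against 3.75% and 3.39%, and the 4 fibroblast markers, mostly COL1A1, summed to 0.983 FPKM there against 5.4 and 5.82. Their part was not tested. The HGC-27 control, the only one of this line, and the condition cannot be told apart.

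**Figure D3:**
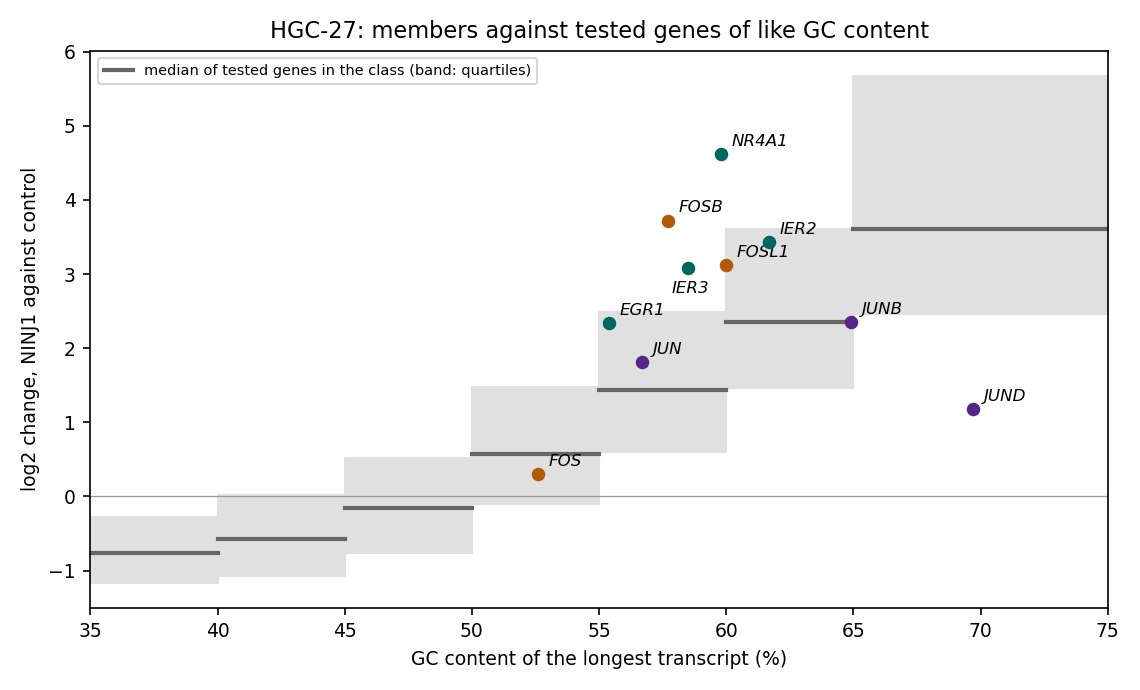
Log2 change in HGC-27 (NINJ1-labelled against control) of the members (Fos family orange, Jun family purple, other early genes green) against the GC content (%) of the longest transcript; lines and bands are the median and quartiles of all tested genes in each GC class. NR4A1, FOSB and IER3 lie above the upper quartile of 2.49 for their class, FOS, JUN, EGR1, IER2 and JUNB within the quartiles of theirs, and JUND below its lower quartile of 2.46; FOSL1, at 60% GC on the border of 2 classes, lies above 2.49 but below the 3.61 of the higher class.

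NR4A1 had 0.739 FPKM (98 counts) in the HGC-27 control, against 22.1 and 25.9 with the NINJ1 label. Its log2 change was 4.62 (SE 0.20, edgeR adjusted p = 2.70e-18), or 24.6-fold. After the GC correction it was 2.91, or 7.52-fold (edgeR adjusted p = 2.63e-12), which was again the largest value among the members. IER2 was at 0.77 FPKM (43 counts) in the control and at 11.4 and 10.6, with a log2 change of 3.43, and of 1.41 after correction (edgeR adjusted p = 3.91e-14 and 4.01e-05). IER3 was at 7.79, 80.3 and 93.4 FPKM, with log2 changes of 3.08 and 1.57 (edgeR adjusted p = 3.53e-16 and 2.50e-09). EGR1 was at 0.807 FPKM (46 counts), 4.69 and 6.08, with log2 changes of 2.34 and 1.33 (edgeR adjusted p = 3.28e-10 and 3.27e-05). The 4 other early genes thus rose with and without the correction, and each control value lay below both NINJ1-labelled values.

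FOSB had 0.367 FPKM (37 counts) in the HGC-27 control, against 6.44 and 6.32, a log2 change of 3.72 (SE 0.25, edgeR adjusted p = 2.29e-14) and a corrected one of 2.36 (edgeR adjusted p = 2.57e-08). FOSL1 was at 5.36 FPKM and then at 45.7 and 76.8, a log2 change of 3.12 (SE 0.23, edgeR adjusted p = 1.41e-13) and of 1.36 after correction (edgeR adjusted p = 6.78e-06). FOS was at 2.63, 3.99 and 4.52 FPKM. Its log2 change of 0.30 (95% interval -0.11 to 0.70) did not pass (edgeR adjusted p = 0.213), and after correction it was -0.33 (edgeR adjusted p = 0.142). FOSB and FOSL1 therefore rose in HGC-27 while FOS, of the lowest GC content among the members, did not pass in either edgeR fit. Limma on log2(FPKM + 1) gave a FOS change of 0.53 that passed (limma adjusted p = 0.0168).

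JUND and JUNB were the members whose values moved most with the correction. JUN had 5 FPKM in the HGC-27 control, against 20.3 and 26, a log2 change of 1.81 (SE 0.18, edgeR adjusted p = 1.15e-10) and a corrected one of 0.60 (edgeR adjusted p = 0.00151). JUNB was at 8.19, 45.5 and 64.6 FPKM, a log2 change of 2.35 (edgeR adjusted p = 9.85e-13), but of -0.21 after correction (edgeR adjusted p = 0.285). JUND was at 23.9, 65 and 77.3 FPKM, higher by log2 1.18 (edgeR adjusted p = 4.17e-08), but lower by log2 -2.11 after correction (edgeR adjusted p = 5.96e-13). No direction can be given for JUND in this line, since both fits passed with opposite signs. The corrected values of genes above 65% GC kept a median log2 change of 0.80, so that the correction was not complete in the class of JUND. Over all members it gave 7 higher and 1 lower, where 22.0% of tested genes were higher and 27.2% lower. The corrected median was 0.19 over AP-1 subunits, 1.49 over the other early genes and -0.02 over all tested genes.

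**Figure D4:**
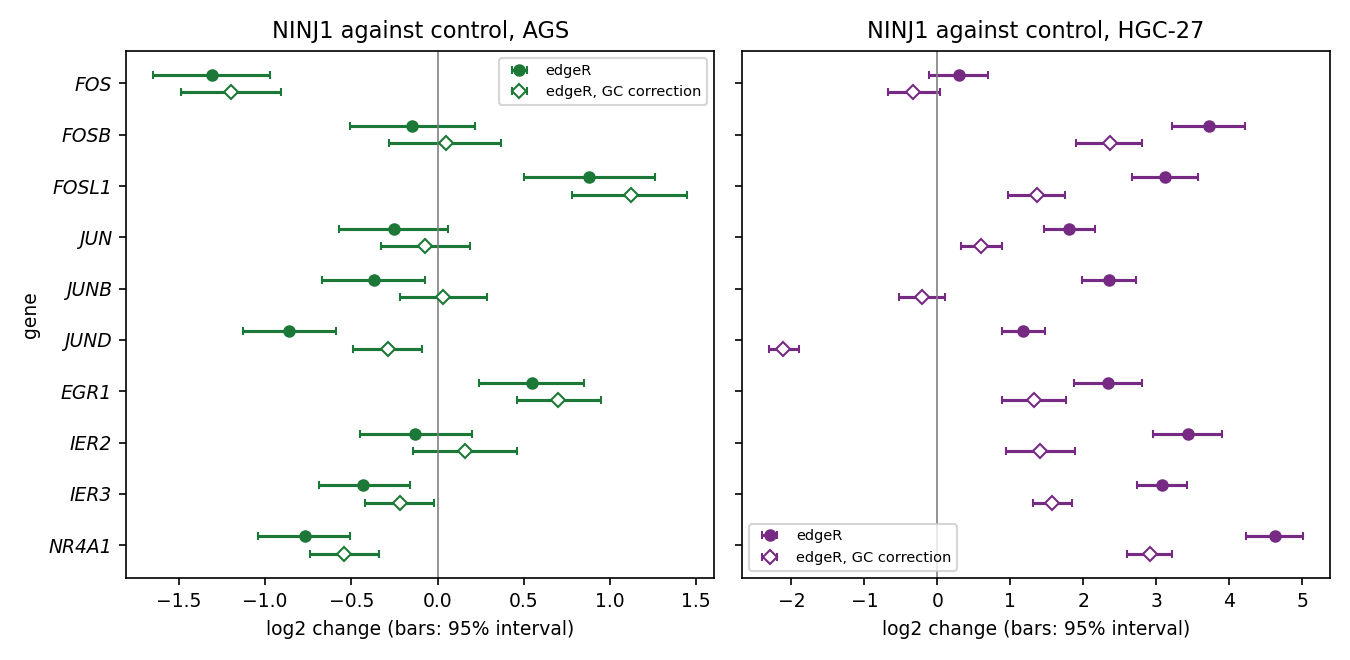
Log2 change of each member between NINJ1-labelled and control libraries in AGS (left) and HGC-27 (right; the axes differ), as circles from edgeR and as open diamonds with the GC correction; bars are 95% intervals. In AGS FOSL1 and EGR1 lie above 0 and FOS, JUND and NR4A1 below in both fits, and in HGC-27 JUND lies above 0 at 1.18 and below 0 at -2.11 after correction.

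The difference between the lines' contrasts was tested as an interaction. For all 10 members the contrast was lower in AGS than in HGC-27 and passed the threshold, and none differed upward, where 23.9% of all tested genes differed upward and 30.2% downward. NR4A1 differed most, by log2 -5.39 (SE 0.24, edgeR adjusted p = 4.70e-18), having fallen in AGS and risen in HGC-27. FOS differed least, by log2 -1.60 (SE 0.27, edgeR adjusted p = 7.07e-06). In the corrected fit 6 members differed downward and 1, JUND, upward, where 22.1% of tested genes differed upward and 14.4% downward. The corrected NR4A1 value was -3.45, that of FOSB -2.31 and that of IER3 -1.79 (edgeR adjusted p = 2.85e-11, 2.07e-06 and 4.19e-08). FOSL1 rose in both lines, and after correction its contrasts of 1.12 and 1.36 differed by log2 -0.24, with an interval of -0.75 to 0.27 (edgeR adjusted p = 0.504). EGR1 also rose in both, and its corrected difference of -0.63 had an interval of -1.14 to -0.11 (edgeR adjusted p = 0.0653).

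The comparison of the lines over the NINJ1-labelled libraries alone did not use the levels in the HGC-27 control. A fit without that library called 2 members higher and 5 lower in AGS, as did the fit with it, and gave EGR1 a log2 difference of 2.71. EGR1 stood apart from the other members there. It was at 34.4 and 36.1 FPKM in AGS against 4.69 and 6.08 in HGC-27, higher in AGS by log2 2.70 (SE 0.14, edgeR adjusted p = 2.85e-17), or 6.52-fold. The counts behind these levels were 1362 and 1502 against 213 and 287. The 9 other members differed between the lines by log2 0.83 or less in size. In total 2 members were higher and 5 lower in AGS, where 20.2% of all tested genes were higher and 20.0% lower. The median log2 difference was -0.47 over AP-1 subunits, 0.09 over the other early genes and -0.01 over all tested genes.

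FOS was the other member that was higher in AGS, at 7.12 and 6.82 FPKM against 3.99 and 4.52 (log2 0.71, SE 0.16, edgeR adjusted p = 0.000462). Its relatives lay the other way. FOSB was at 3.67 and 3.69 FPKM in AGS against 6.44 and 6.32 (log2 -0.80, SE 0.15, edgeR adjusted p = 4.72e-05). FOSL1 was at 47.2 and 41 against 45.7 and 76.8 FPKM, so that the line values overlapped. Its log2 difference of -0.48 passed (edgeR adjusted p = 0.00968), but without HGC-27 NINJ1 replicate 2 it was -0.05 (edgeR adjusted p = 0.771). FOSB therefore exceeded FOS 1.62- and 1.4-fold in the HGC-27 libraries, whereas in AGS its level was 0.515 and 0.541 times that of FOS.

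JUN was lower in AGS, at 12.4 and 13.7 FPKM against 20.3 and 26 (log2 -0.83, SE 0.13, edgeR adjusted p = 3.74e-06). JUND was at 57 and 46.3 FPKM against 65 and 77.3 (log2 -0.47, edgeR adjusted p = 0.00165), and did not pass with the GC correction (log2 -0.16, edgeR adjusted p = 0.124). JUNB was at 61.4 and 69.4 against 45.5 and 64.6 FPKM, with overlapping values and a log2 difference of 0.24 (interval -0.01 to 0.50, edgeR adjusted p = 0.135). After correction it was 0.47 and passed (edgeR adjusted p = 0.00115). The ratio of JUNB to JUN was 4.97 and 5.07 in AGS against 2.24 and 2.49 in HGC-27.

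NR4A1 was at 20.6 and 17.1 FPKM in AGS against 22.1 and 25.9 in HGC-27 (log2 -0.35, SE 0.11, edgeR adjusted p = 0.0121). By FPKM, EGR1 was thus at 1.67 and 2.11 times NR4A1 in AGS and at 0.213 and 0.235 times in HGC-27. In counts, which are not divided by length, NR4A1 was above EGR1 in AGS too (1893 and 1658 against 1362 and 1502). IER3 was at 87.2 and 80.3 against 80.3 and 93.4 FPKM, a log2 difference of -0.06 with an interval of -0.28 to 0.16 (edgeR adjusted p = 0.720). IER2 was at 12.4 and 13.6 against 11.4 and 10.6 FPKM (log2 0.24, interval -0.03 to 0.51, edgeR adjusted p = 0.173), and passed with the GC correction at 0.37 (edgeR adjusted p = 0.0191). In the corrected fit 4 members were higher and 4 lower in AGS, where 21.5% of tested genes were higher and 22.0% lower, and EGR1 stood at log2 2.75. Without AGS NINJ1 replicate 2 the calls of FOSL1, JUND and NR4A1 were lost (edgeR adjusted p = 0.108, 0.159 and 0.347).

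**Figure D5:**
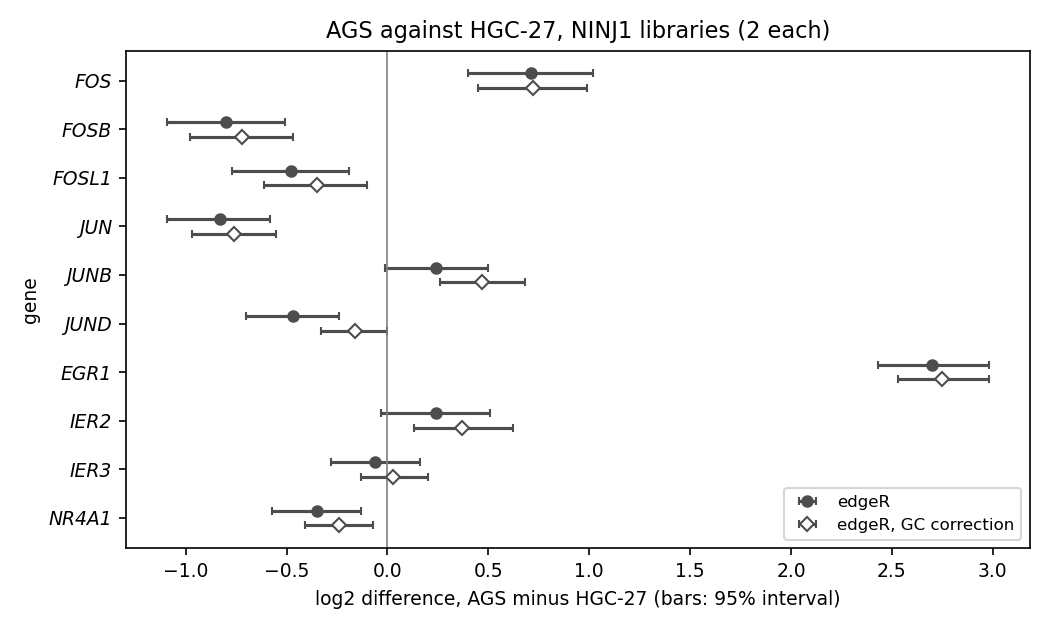
Log2 difference of each member between the NINJ1-labelled libraries of AGS and HGC-27 (2 each), from edgeR (circles) and with the GC correction (open diamonds); bars are 95% intervals. EGR1 lies at 2.70 and 2.75, and the values of the 9 other members all lie between -0.83 and 0.72.

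Other subunits that can join AP-1, or are close relatives of it, were followed in a list of 15, of which 12 were tested. In AGS 1 was higher and 3 were lower, with a median log2 change of -0.09, where 5.73% and 9.30% of all tested genes passed. All counts of listed genes are to be read against such shares of all tested genes. FOSL2, the remaining Fos-family gene, fell by 0.83 on the log2 scale (edgeR adjusted p = 1.42e-05), from 257 CPM (the count scaled to the library's effective total) to 140 and 148. The small Maf genes MAFK and MAFF had log2 changes of -0.67 and 0.66 (edgeR adjusted p = 0.00162 and 0.0117). In HGC-27 7 were higher and 1 lower (median 1.54), against 34.0% and 29.1% of all tested genes. Those of smallest p were MAFK at log2 4.23, MAFG at 2.76 and MAFF at 3.36 (edgeR adjusted p = 1.67e-17, 2.80e-15 and 1.03e-14), with corrected values of 1.90, 1.46 and 1.30. After the GC correction 5 were higher and 2 lower (median 0.77), against 22.0% and 27.2%. Between the lines' NINJ1-labelled libraries 0 were higher and 4 lower in AGS (median -0.28), and 2 higher and 4 lower after correction, against 20.2% and 20.0% of all tested genes before it. Among the lower were ATF3 at log2 -1.07 and MAFF at -0.74 (edgeR adjusted p = 2.71e-08 and 4.19e-05). ATF3 encodes a stress-induced partner of Jun proteins.

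All 30 further early-response genes were tested. In AGS 4 were higher and 4 lower, with a median log2 change of 0.04. ID3, an inhibitor of helix-loop-helix factors, had a log2 change of -1.46 (edgeR adjusted p = 9.43e-06). NR4A3, a relative of NR4A1, had one of -0.99 (edgeR adjusted p = 0.000525), the same sign as NR4A1 in this line. The third relative, NR4A2, was at 0.01 in AGS (edgeR adjusted p = 0.992). In HGC-27 NR4A3 was lower, by log2 -0.79 (edgeR adjusted p = 0.000790), whereas NR4A1 was higher. CITED2, a transcriptional co-regulator, had a log2 change of 0.75 in AGS (edgeR adjusted p = 0.000537). In HGC-27 19 were higher and 4 lower (median 1.70), against 34.0% and 29.1% of all tested genes. Those of smallest p were SRF, serum response factor itself, at log2 3.02, MAFF, and PPP1R15A, a stress-induced phosphatase subunit, at 3.16 (edgeR adjusted p = 5.15e-15 and, for PPP1R15A, 1.15e-13), and the corrected values of SRF and PPP1R15A were 1.12 and 1.59. After the GC correction the counts were 17 and 4 and the median 0.65. Between the NINJ1-labelled libraries 8 were higher and 13 lower in AGS (median -0.21), against 20.2% and 20.0% of all tested genes. CITED2, ID1 and SGK1 were lower there by log2 -1.61, -1.25 and -1.05 (edgeR adjusted p = 1.24e-13, 5.41e-10 and 1.67e-09). The EGR1 relatives EGR2 and EGR3, named after their values were seen, were higher in AGS like EGR1, by log2 1.76 and 1.33 (edgeR adjusted p = 0.00346 and 0.00344). Both were low: EGR2 was at 2.91 and 2.16 CPM against 0.784 and 0.699 in HGC-27, and EGR3 at 4.11 and 4.03 against 1.44 and 1.78. EGR4, also listed, did not follow them, at 0.747 and 0.792 CPM in AGS against 0.654 and 1.84. Its log2 difference with the GC correction was -0.43 (edgeR adjusted p = 0.599).

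Of the kinases and factors upstream of the early genes (20 of 21 tested) 2 were higher and 0 lower in AGS, with a median of 0.01. These were the JNK gene MAPK8 and its kinase MAP2K4, each at log2 0.48 (edgeR adjusted p = 0.0210 and 0.0414). In HGC-27 7 were higher and 8 lower (median -0.14), against 34.0% and 29.1% of all tested genes. Those of smallest p were SRF, MAP2K7 and MAP2K2 at log2 3.02, 3.31 and 2.65 (edgeR adjusted p = 5.15e-15, 1.09e-14 and 1.69e-14), with corrected values of 1.12, 1.07 and 0.75. The corrected counts were 7 and 5 (median -0.02). Between the NINJ1-labelled libraries 6 were higher and 5 lower in AGS (median 0.09), against 20.2% and 20.0%. The ERK-activated kinase RPS6KA3 and the ETS-domain factor ELK3 were higher there by log2 1.09 and 0.90 (edgeR adjusted p = 3.58e-10 and 1.91e-07).

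Feedback inhibitors of MAP kinases, which dephosphorylate or restrain them, were all 16 tested. In AGS 1 was lower, DUSP16 at log2 -0.71 (edgeR adjusted p = 0.000391), and 0 were higher, with a median of 0.30. In the corrected fit 5 were higher and 1 lower, DUSP1 and DUSP5 among them at log2 0.44 and 0.51 (edgeR adjusted p = 0.00498 and 0.00157). In HGC-27 12 were higher and 2 lower (median 1.06), against 34.0% and 29.1% of all tested genes. DUSP5 and DUSP1 were higher by log2 1.89 and 1.79, and DUSP16 lower by -1.78 (edgeR adjusted p = 3.10e-13, 4.55e-13 and 3.32e-13). Those signs held after correction, at 0.80, 0.81 and -1.66. Between the NINJ1-labelled libraries 5 were higher and 5 lower in AGS, against 20.2% and 20.0% of all tested genes. DUSP1 stood at 158 and 142 CPM in AGS against 602 and 609 in HGC-27, lower by log2 -2.02 (edgeR adjusted p = 7.09e-17), and DUSP5 at 99.9 and 90.5 against 238 and 257, lower by log2 -1.38 (edgeR adjusted p = 1.78e-12). DUSP4 and DUSP16, named after their values were seen, were higher there by log2 0.34 and 0.55 (edgeR adjusted p = 0.00822 and 0.000287).

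Genes known as AP-1 targets (22 of 25 tested) divided in AGS into 1 higher and 2 lower, with a median of 0.04. CCND1, which encodes cyclin D1, was at 154 CPM in the AGS control against 223 and 241, higher by log2 0.59 (edgeR adjusted p = 0.00175). In HGC-27 9 were higher and 6 lower (median 0.52), close to the 34.0% and 29.1% of all tested genes. Those of smallest p were HMGA1, LIF and TIMP1 at log2 2.67, 3.17 and 1.68 (edgeR adjusted p = 2.43e-15, 1.25e-12 and 5.03e-12), with corrected values of 0.70, 1.93 and 0.28. In the corrected fit 5 were higher and 4 lower (median 0.04). Between the NINJ1-labelled libraries 12 were higher and 4 lower in AGS (median 0.57), against 20.2% and 20.0% of all tested genes. The cytokine gene IL11 was higher by log2 3.58, and the EGF-family ligand EREG lower by log2 -3.79 (edgeR adjusted p = 1.84e-15 and 1.17e-12).

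Neighbouring genes bear on 2 members. FOSB lies under ERCC1 on the other strand over 7185 bases, and JUNB lies within HOOK2 on the other strand over 1820 bases. Whether counting used strand is not given in the sources used here, so reads of these pairs may have been exchanged or set aside. ERCC1 had 157 counts in the HGC-27 control and 347 to 499 in the other 5 libraries, while FOSB had 37 there and 257 to 528. HOOK2 had 181 counts in that control and 326 to 459 elsewhere, against 271 and 1200 to 2070 of JUNB. The FOSB and JUNB values are uncertain to that extent. The antisense partners of IER2, IER3 and NR4A1 had at most 0, 1 and 15 counts.

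For the AP-1 subunit and the other early gene of the highest mean FPKM, JUND (59.9) and IER3 (76.2), similar profiles over the 6 libraries were sought among 10048 genes by Pearson correlation of log2 CPM. ALDOC and FA2H were among the 3 most similar to JUND (r = 0.9858 and 0.9854), and IER3 was followed by PLPPR2, GIPC1 and SLC2A8 (r = 0.9996, 0.9995 and 0.9995). All 6 points share the low HGC-27 control: IER3 was at 13.2 CPM there and at 103 to 145 in the others, and GIPC1 at 13.9 and 85.2 to 108. These correlations describe 6 libraries and carry no test.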

How the data were processed

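The 6 deposited tables, 1 per library, give for each Ensembl gene a whole-number count and its FPKM, per the file headers. The submitters' processing notes name HISAT2, HTSeq 0.13.5 and GRCh38; strand setting and annotation release are not given in the sources used here. The authors' FPKM equalled the deposited count divided by 1 length per gene and the library total (relative departure up to 5.72e-09 where a gene had 200 counts or more). Gene coordinates and GC content (longest transcript) came from GENCODE 29, which held all 51103 identifiers. Promoter positions were counted from RefSeq starts.

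Counts were tested with edgeR 4.0.16 (R 4.3.3; filterByExpr, minimum count 10, leaving 17617 genes; TMM; quasi-likelihood F test, two-sided; Benjamini-Hochberg threshold 0.05) in 1 model with 4 groups, line by treatment. SE is the log2 change divided by the square root of F, and 95% intervals are 1.96 SE each way. The GC correction removed, per library, a loess curve (span 0.3) of log2 CPM on GC content. The 4 comparisons were NINJ1-labelled against control in each line, the difference of these contrasts, and AGS against HGC-27 in NINJ1-labelled libraries. The procedure was also run on simulated counts, without and with a preset GC bias in the HGC-27 control. Its outcome is not reported here and cannot tell whether the GC correction is complete in these data, whose bias was not the preset one. Alternatives were DESeq2 1.42.0, its size factors in edgeR, other filters, limma 3.58.1 on log2(FPKM + 1) and log2(FPKM + 0.1), the GC correction, a replicate block, lines as titled, and each library left out. All members, and up to 3 genes of smallest p per list and comparison, are named (MMP13 is left out for its low counts, and some other genes are not reported here). EGR2, EGR3, DUSP4 and DUSP16 between lines, and DUSP1 and DUSP5 with the GC correction in AGS, were named after their values were seen. Members and lists were chosen with earlier results of these data known.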

Additional observations from a re-analysis of the deposited data

Results flagged for a closer look

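For each of the 10 members the NINJ1-labelled against control contrast differed between AGS and HGC-27 in a test of that difference (edgeR interaction, Benjamini-Hochberg adjusted). The log2 differences, AGS minus HGC-27, were -1.60 for FOS, -3.87 for FOSB and -2.24 for FOSL1. They were -2.06 for JUN, -2.72 for JUNB and -2.04 for JUND. EGR1 differed by -1.79, IER2 by -3.56, IER3 by -3.51 and NR4A1 by -5.39. The edgeR adjusted p-values ran from 4.70e-18 (NR4A1) to 7.07e-06 (FOS). All of these values rest on the single HGC-27 control, which held 2.31% of its counts in genes of over 60% GC, and the part of that library in them was not tested beyond the GC correction. With the correction FOS (-0.88), FOSB (-2.31), JUN (-0.67), IER2 (-1.26), IER3 (-1.79) and NR4A1 (-3.45) still differed in that direction, FOSL1 (-0.24), EGR1 (-0.63) and JUNB (0.24) did not pass, and JUND (1.82) differed in the other.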

How the results depend on the processing

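The share of all tested genes called was obtained for the main and GC-corrected fits alone. For the other fits, whether a smaller count of members goes with fewer calls among all genes was not tested. In AGS 6 members were called by edgeR. DESeq2 called 3, limma on log2(FPKM + 1) called 1 and limma on log2(FPKM + 0.1) called 0 (4 at an unadjusted p under 0.05). With lines as titled edgeR called 0 in AGS (2 unadjusted), 0 for the difference between contrasts (7 unadjusted) and 0 between lines (0 unadjusted), against 6, 10 and 7 by file name. By the genes seen in 1 line alone, the titled NINJ1 groups each mix both lines, so the titled fit does not describe a line. In HGC-27 it called 6 of the 9, and JUN (adjusted p = 0.173), JUND (0.175) and EGR1 (0.190) lost their calls. Both limma settings called 4 between the lines. Leaving out 1 library gave 4 to 7 members in AGS, 9 in HGC-27, 10 for the difference and 4 to 7 between lines (4 without AGS NINJ1 replicate 2). The HGC-27 contrast without its control, and the AGS contrast without its own, could not be fitted. Among members called in edgeR, signs turned in these cases: with the GC correction, JUNB (-0.21) and JUND (-2.11) in HGC-27 and the difference for JUNB (0.24) and JUND (1.82); with lines as titled, EGR1 in AGS (-0.26) and, between lines, FOSL1 (0.52), JUN (0.18), JUND (0.27), EGR1 (-0.03) and NR4A1 (0.24). Values that had not passed also turned sign, such as FOS in HGC-27 (-0.33) and FOSB, JUNB and IER2 in AGS (0.05, 0.03 and 0.16) with the correction, and FOSB and JUN in AGS (0.30 and 0.31) with lines as titled. Apart from the titles and the construction of the correction, the cause was not tested. With the replicate number as a replicate block the counts were 7 in AGS, 9 in HGC-27, 10 for the difference and 8 between lines. JUNB gained a call in AGS (log2 -0.55, edgeR adjusted p = 0.00226) and between lines (0.26, 0.0483). Deviations of same-numbered libraries correlated at 0.00841 over the tested genes. That value showed no shared deviation by number, but it cannot tell whether same-numbered libraries were prepared together. A mean FPKM of at least 5 drops FOSB. Depth limits the HGC-27 control most, where FOSB, IER2 and EGR1 had 37, 43 and 46 counts.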
